A study of Homo sapiens with 3 samples.

Results

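AMP-activated protein kinase (AMPK) was followed here through 10 genes: 6 that encode its subunits, 3 for the kinases that switch it on or their partner, and ACACA, which encodes its best known substrate. They were taken by gene symbol, and all 10 were found among the 19049 gene symbols of the deposited table. The cells were MDA-MB-231, a basal-like human breast cancer cell line with mesenchymal features. A short hairpin RNA had lowered their own KAP1, the transcriptional corepressor encoded by TRIM28. KAP1 was then put back as wild-type protein (wt), as S473A, where the serine is replaced by alanine and cannot be phosphorylated, or as S473D, where aspartate imitates a phosphorylated serine. All 3 groups share the depletion and the culture in DMEM with 10% serum, and each gave 1 library. Whether the cells were pools or clones is not given in the sources used here.

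AMPK is a complex of a catalytic alpha subunit, a beta subunit that holds the complex together and binds glycogen, and a gamma subunit that binds adenine nucleotides and so reads the energy state of the cell. It is switched on when the kinase LKB1, or the calcium-dependent kinase CaMKK2, phosphorylates the activation loop of the alpha subunit. Active AMPK restrains fatty acid, sterol and protein synthesis and favours fatty acid oxidation, glucose uptake and autophagy. These steps act on proteins, which were not measured here, so transcript levels give neither the amount of each subunit protein nor the activity of the kinase.

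Levels are in RPKM, that is, reads scaled to the length of the gene model and to the reads of the library. Log2 differences were taken after adding 1 to each RPKM, which makes those of low genes look smaller than they are. A group with 1 library has no replicate error, so no test was made and a difference is one between 2 libraries. Intervals are exact 95% intervals for counting error only, from depths estimated at 25800000 reads (wt), 29500000 (S473A) and 24000000 (S473D). At those depths the 10 genes rested on an estimated 612 to 4111 reads per library. TRIM28 itself read 28.7 (wt), 32.3 (S473A) and 25.6 RPKM (S473D), with hairpin-targeted and re-expressed transcript counted together. Of the markers of the line, VIM stood between 673 and 740 RPKM and CD44 between 119 and 156, while ESR1, PGR, CDH1, EPCAM, PTPRC, PECAM1 and CDH5 stayed at or below 0.339 RPKM in every library.

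All 10 genes passed the filter on low genes, a 3-library mean of 1 RPKM or more. CAB39 was the most abundant, with a mean of 35.2 RPKM, followed by PRKAG1 (23.8), PRKAA1 (23.5), STK11 (15.4), CAMKK2 (11.9), ACACA (10.5), PRKAB1 (10.4), PRKAB2 (8.24), PRKAG2 (7.91) and PRKAA2 (4.33). Several neighbours in that order did not differ beyond their spread over the libraries. PRKAG1 lay above PRKAA1 in 1 of 3 libraries, ACACA above PRKAB1 in 2 and PRKAB2 above PRKAG2 in 2. STK11 lay above CAMKK2, and CAMKK2 above ACACA, in all 3 libraries, although their ranges over the libraries overlapped.

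**Figure D1:**
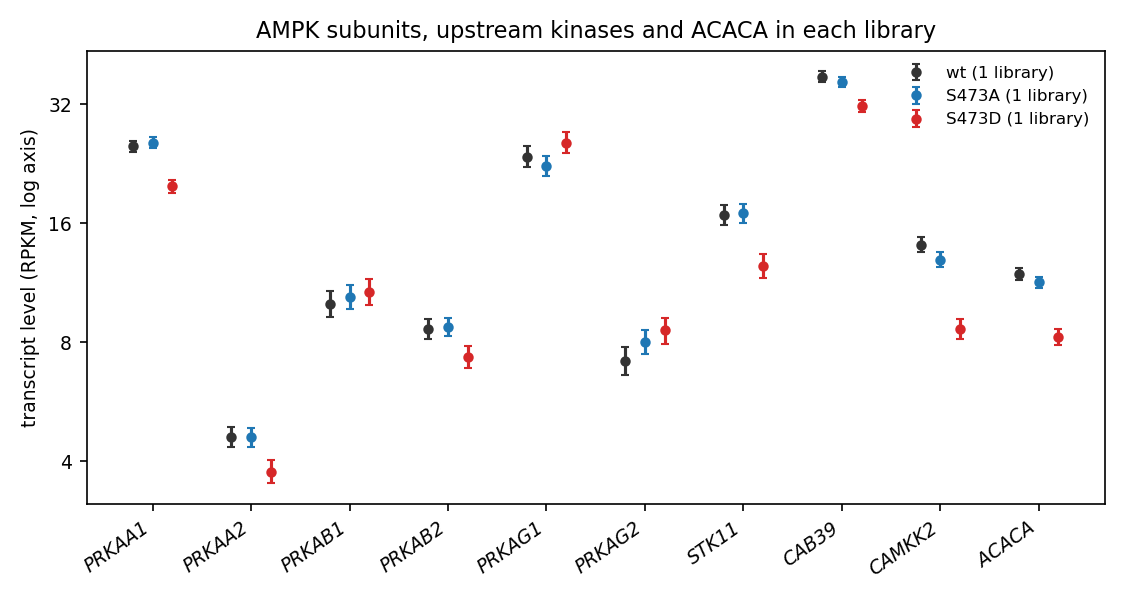
Transcript level of each gene in RPKM (log axis) in the wt, S473A and S473D libraries. Points are single libraries and bars are exact 95% counting intervals. In 7 genes the S473D point is the lowest of the 3, as for CAMKK2 at 8.64 RPKM against 14.1 in wt, while PRKAB1, PRKAG1 and PRKAG2 are highest there.

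Both catalytic subunit genes were lower in the S473D library and close to wt in S473A. PRKAA1, which encodes alpha1, read 25.0 (wt), 25.5 (S473A) and 19.8 RPKM (S473D). Its S473D level was 0.792 of wt (interval 0.751 to 0.835), and its S473A level was 1.02 of wt (interval 0.975 to 1.07). PRKAA2, which encodes alpha2, read 4.62 (wt), 4.60 (S473A) and 3.77 RPKM (S473D). With S473D it was at 0.816 of wt (interval 0.745 to 0.893), and its S473A level was 0.996 of wt (interval 0.918 to 1.08). On the log2(RPKM + 1) scale the differences of S473D from wt were -0.32 for PRKAA1 and -0.24 for PRKAA2. The alpha1 share of the summed alpha RPKM was 84.4% in wt (interval 83.5 to 85.3), 84.8% in S473A (interval 83.9 to 85.6) and 84.0% in S473D (interval 82.9 to 85.1). The cultures were read in bulk, so fewer expressing cells and less transcript per cell cannot be told apart. The summed alpha level was 29.6 (wt), 30.1 (S473A) and 23.6 RPKM (S473D).

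The beta subunit genes parted from each other in S473D. PRKAB1, for beta1, read 10.0 (wt), 10.4 (S473A) and 10.7 RPKM (S473D), a ratio of S473D to wt of 1.07 whose interval (0.959 to 1.19) includes 1. PRKAB2, for beta2, read 8.63 (wt), 8.75 (S473A) and 7.35 RPKM (S473D), which was 0.851 of wt (interval 0.781 to 0.927). The beta1 share of summed beta RPKM was 53.7% in wt (interval 51.3 to 56.1), 54.3% in S473A (interval 52.1 to 56.5) and 59.3% in S473D (interval 56.9 to 61.7). The counting intervals of wt and S473D do not meet, and the S473D share was 60.7% after removal of length and GC trends. The summed beta level was 18.6 (wt), 19.1 (S473A) and 18.0 RPKM (S473D).

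The gamma subunit genes were not lower in S473D as deposited. PRKAG2, for gamma2, read 7.18 (wt), 8.0 (S473A) and 8.57 RPKM (S473D). It was the member with the highest difference in both comparisons with wt. The difference was 0.14 in S473A (ratio 1.11, interval 1.001 to 1.24) and 0.23 in S473D (ratio 1.19, interval 1.07 to 1.33). PRKAG1, for gamma1, read 23.6 (wt), 22.3 (S473A) and 25.5 RPKM (S473D). Its S473D difference from wt was 0.11 as deposited (ratio 1.08, interval 0.994 to 1.18). After removing the trends that differences showed with length and base composition of transcripts it was -0.08, so its sign depends on that step. Relative to the median of all genes the difference was 0.21 as deposited and 0.03 after that step. The gamma1 share of the PRKAG1 and PRKAG2 sum was 76.7% in wt (interval 74.8 to 78.4), 73.6% in S473A (interval 71.8 to 75.4) and 74.9% in S473D (interval 73.0 to 76.7). PRKAG3, the gene of the gamma3 subunit, was not analysed here.

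**Figure D2:**
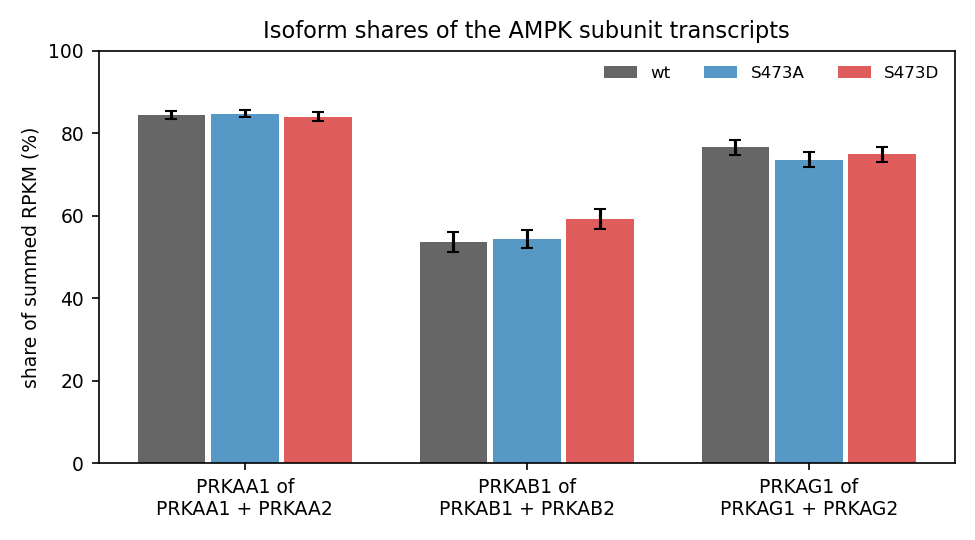
Share of the first isoform of each AMPK subunit in the summed RPKM of its pair (percent, axis from 0), by library. Bars are single libraries with exact 95% counting intervals. The PRKAA1 share lies between 84.0% and 84.8% in the 3 libraries, and the PRKAB1 share is 53.7% in wt against 59.3% in S473D.

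Among the upstream kinases was the member with the lowest S473D difference as deposited, a place that PRKAA1 took (-0.48 against -0.42) without the length and GC trends. CAMKK2, the calcium-dependent kinase that phosphorylates AMPK, read 14.1 (wt), 12.9 (S473A) and 8.64 RPKM (S473D). In S473D it reached 0.612 of wt (interval 0.569 to 0.658), and in S473A 0.916 of wt (interval 0.861 to 0.974), so it was below the shared wt library in both cases, by unequal amounts. The log2 differences were -0.65 in S473D and -0.12 in S473A, and 1.59% of all genes had a lower value than CAMKK2 in S473D against wt, 8.44% in S473A against wt. STK11, the gene of LKB1, read 16.8 (wt), 16.9 (S473A) and 12.5 RPKM (S473D). Its S473D level was 0.745 of wt (interval 0.679 to 0.816), a log2 difference of -0.40. CAB39, which encodes the scaffold protein MO25 that holds LKB1 in its active form, read 37.5 (wt), 36.4 (S473A) and 31.6 RPKM (S473D). The S473D level was 0.843 of wt (interval 0.803 to 0.886), a log2 difference of -0.24.

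The proximal promoters of these genes are shown for 3 members that were lower in S473D, CAMKK2, STK11 and PRKAA1, and for PRKAB1, which was not, each being a gene with 1 start in the RefSeq promoter table. Each line gives the 250 bases before the start, 5′ to 3′ on the gene's strand, build GRCh38.p14, with motif matches in capitals. The windows are chr12:121296710-121296959 (minus strand) for CAMKK2, chr19:1205528-1205777 (plus) for STK11, chr5:40798178-40798427 (minus) for PRKAA1 and chr12:119667883-119668132 (plus) for PRKAB1.
CAMKK2: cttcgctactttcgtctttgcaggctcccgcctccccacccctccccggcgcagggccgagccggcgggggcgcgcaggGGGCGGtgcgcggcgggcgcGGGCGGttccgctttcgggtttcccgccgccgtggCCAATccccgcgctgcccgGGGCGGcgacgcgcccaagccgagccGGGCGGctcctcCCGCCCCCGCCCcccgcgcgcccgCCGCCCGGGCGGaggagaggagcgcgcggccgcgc
STK11: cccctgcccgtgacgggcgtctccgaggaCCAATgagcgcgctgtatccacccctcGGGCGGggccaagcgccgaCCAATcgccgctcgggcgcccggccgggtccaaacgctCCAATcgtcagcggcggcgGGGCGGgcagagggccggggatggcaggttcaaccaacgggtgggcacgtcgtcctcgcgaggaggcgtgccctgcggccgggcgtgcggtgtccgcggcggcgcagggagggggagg
PRKAA1: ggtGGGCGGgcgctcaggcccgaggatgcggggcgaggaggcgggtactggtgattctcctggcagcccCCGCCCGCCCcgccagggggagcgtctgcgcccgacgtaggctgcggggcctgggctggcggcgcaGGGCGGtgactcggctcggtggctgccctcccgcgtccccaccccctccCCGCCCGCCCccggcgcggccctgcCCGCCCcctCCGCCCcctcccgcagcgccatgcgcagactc
PRKAB1: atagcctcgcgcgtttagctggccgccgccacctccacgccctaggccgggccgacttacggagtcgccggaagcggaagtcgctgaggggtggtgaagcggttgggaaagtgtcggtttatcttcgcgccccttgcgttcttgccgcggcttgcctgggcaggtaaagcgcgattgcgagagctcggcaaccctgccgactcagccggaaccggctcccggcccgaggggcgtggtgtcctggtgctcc
The motifs searched on both strands were the GC box (GGGCGG), the CCAAT box (CCAAT), the E-box (CACGTG), the cyclic AMP element (TGACGTCA), the AP-1 motif (TGANTCA) and the TATA box (TATAAA), and neighbouring GC boxes may overlap. CAMKK2 held 8 GC boxes and 1 CCAAT box, PRKAA1 8 GC boxes, STK11 2 GC boxes and 3 CCAAT boxes, and PRKAB1 none of the 6 motifs. Of the members with 1 start that are not shown, PRKAA2 held 5 GC boxes and PRKAB2 1, both lower in S473D, and PRKAG1, which was not lower as deposited, held 4, so GC boxes occurred in members of either direction. Of 35116 promoter windows of this length, 42.6% held a GC box, 32% a CCAAT box, 6.34% an E-box, 1.65% a cyclic AMP element, 6.57% an AP-1 motif and 10.7% a TATA box. GC content was 82.8% for CAMKK2, 80.8% for PRKAA1, 76.0% for STK11 and 67.6% for PRKAB1, against a median of 58.0% over those windows. The matches are letters in a reference window, and no binding was measured.

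ACACA, the cytosolic acetyl-CoA carboxylase that makes malonyl-CoA for fatty acid synthesis and that AMPK phosphorylates and inhibits, read 11.9 (wt), 11.3 (S473A) and 8.25 RPKM (S473D). With S473D it was at 0.693 of wt (interval 0.654 to 0.734), a log2 difference of -0.48, and 8.06% of all genes had a lower value. With S473A it was 0.952 of wt, and the interval from 0.906 just reaches 1.

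**Figure D3:**
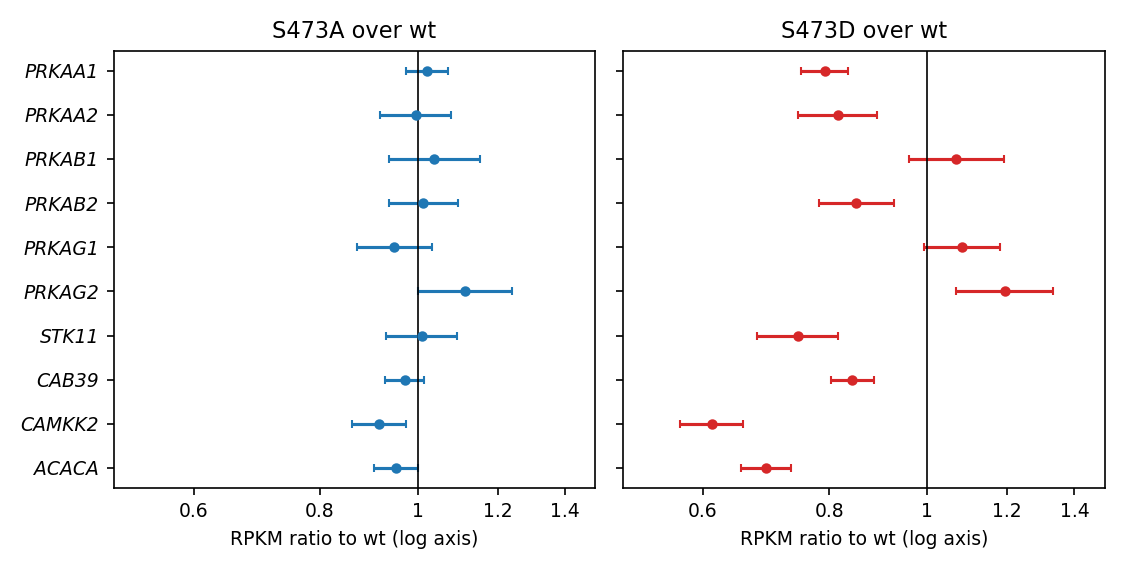
RPKM ratio to wt (log axis) of each gene in S473A (left) and S473D (right). Points are ratios of single libraries and bars are exact 95% counting intervals. The S473A ratios run from 0.916 to 1.11, and the S473D ratios from 0.612 for CAMKK2 to 1.19 for PRKAG2. In S473D, PRKAG1 is above 1 only before length and GC trends are removed.

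Read as a group, the 10 genes sat near wt in S473A and mostly below it in S473D, where most other genes were below wt too. Between S473A and wt 5 were lower and 5 higher, with a median of 0.00, while 50.2% of 11570 genes were lower. None of the 10 was 1.5-fold apart there, against 0.242% of all genes. Set against wt, 7 of the 10 were lower in S473D, with a median of -0.24 against -0.10 for all genes, and 60.7% of all genes were lower, so the count of lower members is near the background. At 1.5-fold on the scale of RPKM + 1, 1 member, CAMKK2, was lower (3.23% of all genes) and none was higher (6.83%), and none was 2-fold apart in either direction (1.09%). CAMKK2 no longer reached 1.5-fold on centring or with trimmed-mean scaling (-0.55 in both) or without the length and GC trends (-0.42). Over all genes those steps took the counts at 1.5-fold from 374 lower and 790 higher to 128 and 1105, 139 and 1118, and 291 and 219. Relative to the median of all genes, the S473D differences were -0.55 for CAMKK2, -0.38 for ACACA, -0.30 for STK11, -0.22 for PRKAA1, -0.14 for PRKAA2 and CAB39 and -0.11 for PRKAB2, and 0.33, 0.21 and 0.19 for PRKAG2, PRKAG1 and PRKAB1.

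S473D was also compared with S473A, a comparison that shares the S473D library with the one above. CAMKK2 was at 0.668 of its S473A level (interval 0.622 to 0.718), ACACA at 0.728 (interval 0.688 to 0.770), STK11 at 0.738 (interval 0.674 to 0.807) and PRKAA1 at 0.775 (interval 0.737 to 0.816). PRKAG1 was at 1.14 (interval 1.05 to 1.245), which is 0.19 on the log2 scale as deposited and -0.01 without the length and GC trends. The remaining ratios were 0.819 for PRKAA2, 0.840 for PRKAB2, 0.868 for CAB39, 1.03 for PRKAB1 and 1.07 for PRKAG2. Of the 10 genes 7 were lower (median -0.23, all genes -0.10), where 60.7% of all genes were lower. None reached 1.5-fold, against 9.86% of all genes. With the trends removed the difference was -0.51 for PRKAA1, then the lowest of the 10, and -0.31 for CAMKK2. After that step 8 of the 10 were lower, where 64.9% of all genes were, and 7 lay below the median of all genes.

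Transcript length and GC content moved with the S473D differences of all genes. With genes split into 5 equal groups, the group with the shortest transcripts had a median of 0.25 in S473D against wt, and the group with the longest, 5582 bases and over, had -0.26. The group lowest in GC content had a median of 0.02 and the highest -0.19. The medians of the same length groups in S473A against wt lay between -0.002 and 0.002. The 10 genes had a median transcript length of 4457 bases against 3240.5 for all genes, and PRKAA2, CAMKK2 and ACACA were in the group with the longest transcripts. With smooth trends on both properties removed, the S473D differences from wt were -0.48 for PRKAA1, -0.42 for CAMKK2, -0.36 for PRKAA2, -0.31 for CAB39, -0.28 for ACACA, -0.27 for STK11 and -0.22 for PRKAB2, and 0.24 for PRKAG2, 0.16 for PRKAB1 and -0.08 for PRKAG1. The 7 lower genes were thus still below the median of all genes, which the step puts back at -0.10. PRKAA1, rich in A and T at 35.3% GC, was then lower than CAMKK2, however. With 1 library, the S473D form and these trends in its library cannot be told apart.

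**Figure D4:**
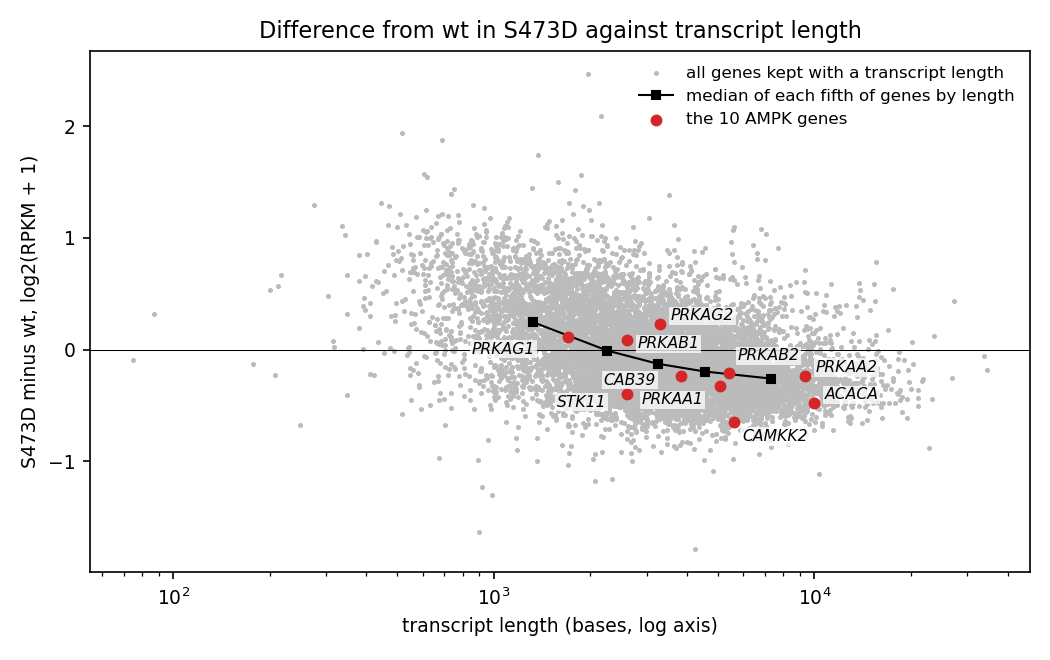
Difference of S473D from wt in log2(RPKM + 1) against transcript length in bases (log axis) for all genes kept (grey), with the 10 AMPK genes in red. Black squares are the medians of 5 equal groups of genes by length, which go from 0.25 to -0.26. CAMKK2 (-0.65) and STK11 (-0.40) lie below the line of medians and PRKAG2 (0.23) above it, and PRKAG1 lies close to it.

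Some values could hold reads of other genes. In GENCODE, 302 exon bases of PRKAG1 (15.6%) are shared with the opposite-strand DDN-AS1, 149 of STK11 (4.77%) with CBARP, 137 of PRKAB1 (4.38%) with a long noncoding RNA and 84 of PRKAG2 (1.93%) with PRKAG2-AS1. CAB39 has a processed pseudogene, CAB39P1. Whether counting used strand is not given in the sources used here, and the part of these overlaps in the values was not tested.

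Patterns close to those of CAMKK2, the member with the widest range over the libraries, and of PRKAA1 were sought among 8113 other genes whose mean was 5 RPKM or more, by the distance between their pairs of differences from wt. The nearest to CAMKK2 were the centrosome gene NDE1 (-0.11 in S473A, -0.66 in S473D), the linker histone gene H1F0 (-0.12 and -0.63) and CD99L2 (-0.12 and -0.67), and 23 genes lay within a distance of 0.05. The nearest to PRKAA1 were TRRAP (0.03 and -0.32), a subunit gene of histone acetyltransferase complexes, the histone variant gene H2AFX (0.03 and -0.32) and MBD3 (0.02 and -0.32), a subunit gene of the NuRD repressor, and 386 genes lay within that distance. With 3 libraries behind each pattern, closeness on this measure is common for PRKAA1 and less so for CAMKK2.

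The wider pathway was followed in 5 lists of 51 genes, of which 48 passed the filter. ACACB, with 0.66 (wt), 0.71 (S473A) and 0.45 RPKM (S473D), and SESN3, with 0.99, 1.05 and 0.94, were below it, and PRKAG3 is the gene not analysed. In S473A against wt 24 were lower and 24 higher, with a median of 0.00 and none 1.5-fold apart. Of all genes 50.2% were lower there and 0.242% were 1.5-fold apart, so both counts are near the background. In S473D against wt 39 were lower and 9 higher (60.7% of all genes were lower), with a median of -0.29 against -0.10 for all genes. Removing the trends brought the median to -0.12 against -0.10, and 26 of the 48 lay below the median of all genes, in place of 34 as deposited. The median of the lists was thus close to that of all genes after this step.

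Other components and activators had a median of -0.01 over 5 genes in S473D, with 3 lower, where 60.7% of all genes were. With the trends removed the median was -0.10, as for all genes, with 5 lower, where 65.0% of all genes were. Below the median of all genes lay 2 of the 5 as deposited and 2 with the trends removed. The S473A median of the list was -0.06, with 4 lower, where 50.2% of all genes were. CAMKK1, a second calcium-dependent kinase gene, read 2.07 (wt), 1.93 (S473A) and 1.37 RPKM (S473D), a log2 difference of -0.37 from wt in S473D (-0.20 with the trends removed) and -0.07 in S473A. STRADB, which encodes a pseudokinase partner of LKB1, stood at 15.6, 14.9 and 16.2 RPKM in wt, S473A and S473D, a difference of 0.05 in S473D that was -0.10 with the trends removed. MAP3K7, the gene of the kinase TAK1, stood at 9.64, 9.71 and 9.88 RPKM.

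Of 12 LKB1-dependent kinases related to AMPK, 11 were lower in S473D (median -0.31), where 60.7% of all genes were, and 9 with the trends removed (median -0.17), where 65.0% of all genes were. Below the median of all genes lay 9 of the 12 as deposited and 7 with the trends removed. BRSK2, a kinase of neuronal polarity, read 2.20 (wt), 2.22 (S473A) and 1.12 RPKM (S473D), a log2 difference of -0.59 from wt, or -0.35 with the trends removed. MARK4, a microtubule affinity kinase, stood at 3.54, 3.72 and 2.03 RPKM, a difference of -0.58 from wt and -0.64 from S473A, or -0.33 and -0.37 with the trends removed. NUAK1, at 7.65, 8.17 and 8.18 RPKM, differed from wt by 0.08 in both S473A and S473D, and by 0.33 in S473D with the trends removed, where SIK1 (0.20) and BRSK1 (0.13) were above 0 too. Its relative NUAK2, at 3.44, 3.18 and 2.40 RPKM, had the lowest S473A difference of the list (-0.09).

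Phosphatases and lysosomal or stress regulators had a median of -0.16 in S473D, with 7 of 11 lower, where 60.7% of all genes were. With the trends removed the median was -0.15, with 8 lower, where 65.0% of all genes were. Below the median of all genes lay 6 of the 11 as deposited and 7 with the trends removed. LAMTOR1, which anchors the lysosomal Ragulator complex, read 54.6 (wt), 52.3 (S473A) and 65.5 RPKM (S473D), a difference of 0.26 from wt that was 0.02 with the trends removed. AXIN1, a scaffold that can bring LKB1 to AMPK, stood at 11.2, 11.4 and 8.24 RPKM, a difference of -0.40, or -0.19 with the trends removed. SESN2, a stress-induced gene whose protein promotes AMPK activity, had the lowest S473A difference of the whole pathway, at 4.56 RPKM in wt, 3.77 in S473A (-0.22, ratio 0.826, interval 0.717 to 0.952) and 3.23 in S473D (-0.39, or -0.22 with the trends removed). FNIP2, a partner of folliculin, stood at 2.64, 2.92 and 1.86 RPKM, highest of its list in S473A against wt (0.11) and lowest in S473D against S473A (-0.46).

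Of 13 substrate genes 12 were lower in S473D (median -0.29), where 60.7% of all genes were. With the trends removed 8 were lower (median -0.09), a share below the 65.0% of all genes. Below the median of all genes lay 11 of the 13 as deposited and 5 with the trends removed. MFF, the receptor of the mitochondrial fission GTPase and a substrate of AMPK, was the exception, with 26.1 (wt), 26.1 (S473A) and 35.9 RPKM (S473D). In S473D it reached 1.37 of wt (interval 1.28 to 1.47), a log2 difference of 0.44, or 0.25 with the trends removed. PFKFB3, a regulator of glycolysis, stood at 19.3, 19.1 and 12.4 RPKM, and its S473D level was 0.643 of wt (interval 0.601 to 0.688), a difference of -0.60, or -0.39 with the trends removed. CRTC2, a coactivator held in the cytoplasm by AMPK and its relatives, had the lowest S473A difference of the list (-0.13), at 18.9, 17.2 and 14.8 RPKM, and PFKFB2 the highest (0.09), at 2.12, 2.32 and 2.09 RPKM.

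Enzymes and regulators around ACACA were lower in 6 of 7 cases in S473D (median -0.40), where 60.7% of all genes were. With the trends removed 6 were lower too (median -0.25), where 65.0% of all genes were. Below the median of all genes lay 6 of the 7 as deposited and 5 with the trends removed. SREBF1, the gene of the transcription factor that drives lipid synthesis genes, read 12.4 (wt), 12.7 (S473A) and 8.08 RPKM (S473D), a difference of -0.56 from wt and -0.60 from S473A, or -0.31 and -0.33 with the trends removed. MLYCD, which encodes the enzyme that breaks malonyl-CoA down, stood at 2.19, 2.49 and 2.37 RPKM, a difference of 0.13 in S473A and 0.08 in S473D, the latter 0.37 with the trends removed. Across all lists 2 genes, BRSK2 and PFKFB3, were 1.5-fold lower in S473D than in wt on the scale of RPKM + 1 (3.23% of all genes), and 4 were with a pseudocount of 0.1 or 0.5 RPKM. In S473D against S473A 4 were 1.5-fold lower on that scale, BRSK2, PFKFB3, MARK4 and SREBF1 (347 of 11570 genes, or 3.0%), 5 with a pseudocount of 0.1 RPKM, and none was 1.5-fold higher (6.86%). In neither comparison did any gene of the lists reach 1.5-fold on centring, with trimmed-mean scaling or without the length and GC trends. Of all 11570 genes, 1233 did on centring in S473D against wt (128 lower) and 1263 against S473A (130 lower). With trimmed-mean scaling 1257 (139 lower) and 1286 (139 lower) did. Without the trends 510 (291 lower) and 482 (272 lower) of 10780 genes did.

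**Figure D5:**
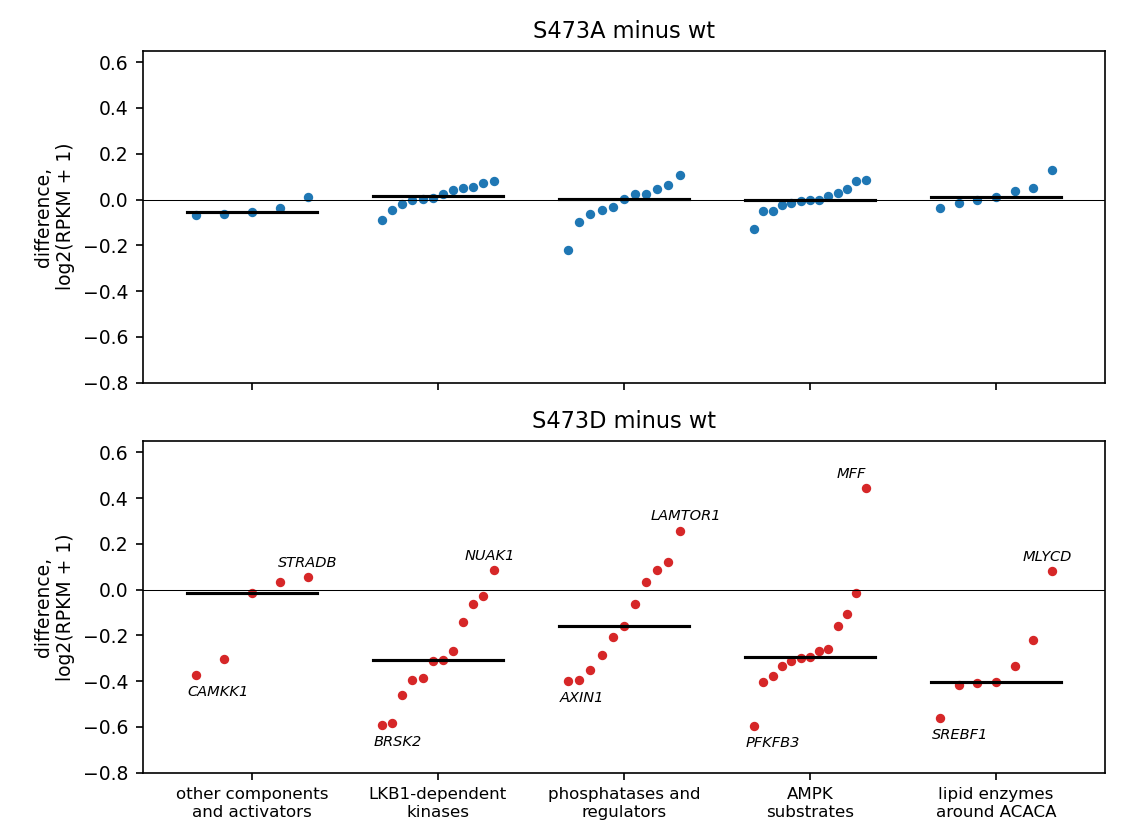
Differences from wt in log2(RPKM + 1) of the 48 wider pathway genes in S473A (top) and S473D (bottom), by list. Points are genes, ordered by value within a list, and black lines are list medians. S473A values lie between -0.22 and 0.13, and S473D values run from -0.60 (PFKFB3) to 0.44 (MFF). STRADB, MAP3K7 and PPP2CB are above 0 in S473D only before trends on length and GC content are removed, but above the median of all genes (-0.10) after that step too.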

How the data were processed

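Each KAP1 form has 1 library, 3 in all, placed in its group by sample title. Reads were handled with Bowtie and Partek against hg19, per the submitters' processing notes. Tool versions, gene models and the counting rule were not given in the sources used here. In the deposited table, values are log2 of RPKM, and their lowest value of -3.32193 was read as 0.1 added before the log. RPKM was recovered by undoing this.

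Of 19076 lines, 27 with date-like or repeated symbols were left out, then genes under a mean of 1 RPKM and 178 short RNAs, which left 11570. Depth was estimated from the lowest RPKM values multiplied by GENCODE 29 transcript length, and intervals rest on it. The depth and interval steps were tested on counts simulated with counting error only, from the same lengths and estimated depths. That test, whose outcome is not reported here, cannot show the error from gene models or a counting rule that differ from those lengths. Lengths were found for 10780 genes (93.2%). Trends were removed by lowess (fraction 0.2, 2 rounds, statsmodels 0.14.6), and the median difference from before that step was then put back. RefSeq promoter windows were found for all 10 genes. The members and lists were chosen with earlier results of these data known. Genes named from the wider lists were those 1.5-fold apart in any comparison and the highest and lowest of each list, of which 1 is not reported here. The alternatives were other pseudocounts, filters and scalings and the removal of trends.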

Additional observations from a re-analysis of the deposited data

How the results depend on the processing

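The differences of the 10 genes were taken again under pseudocounts of 0.1 and 0.5 RPKM, centring, trimmed-mean scaling and removal of trends. Those from wt in S473A all moved by less than 0.5 of the width of their counting intervals on the log2 scale. In S473D against wt, 3 of the 10 moved further under centring and under trimmed-mean scaling and 5 with the trends removed, where PRKAG1 changed sign. In S473D against S473A, 3 moved further under each of those scalings and 6 with the trends removed, where PRKAG1 changed sign too. The median of the wider lists moved to -0.12 with the trends removed (-0.11 against S473A), and the gamma1 share in S473D to 72.2%. Counts over all genes moved more. In S473A against wt the count at 2-fold went from 2 to 14 and 7 with pseudocounts of 0.1 and 0.5 RPKM, 1 with the trends removed, 31 with no filter and 0 at a mean of 5 RPKM, and that at 1.5-fold from 28 to 66 (pseudocount 0.1), 157 (no filter) and 9 (mean of 5 RPKM). In S473D against wt the count at 2-fold went from 126 to 205 with a pseudocount of 0.1 and 205 on centring, 217 with trimmed-mean scaling and 49 with the trends removed, and that at 1.5-fold from 1164 to 1730 with a pseudocount of 0.1 and 510 with the trends removed. In S473D against S473A the corresponding counts were 131, then 218, 219, 226 and 52, and at 1.5-fold 1141, then 1721 with a pseudocount of 0.1 and 482 with the trends removed. On centring, 197 of the 205 genes in S473D against wt were higher, and with the trends removed 24 of 49, in place of 115 of 126. No paired analysis was possible because each group has 1 library. Depth limits ratios of single genes to intervals of the width given, and the spread between cultures is unknown.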
